A study of Canis lupus familiaris with 6 samples.

Results

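The cytosolic ribosomal protein genes were taken as every gene symbol in the deposited feature lists that starts with RPL or RPS and a digit, together with RPLP0, RPLP1, RPLP2 and RPSA. RPS6K and RPS19BP genes and identifiers without a symbol were left out. This gave 79 genes of 34981 gene names, 47 of the large and 32 of the small ribosomal subunit (RPLP and RPSA included), and all 79 are listed as protein-coding in the RefSeq gene table of the dog assembly UU_Cfam_GSD_1.0. RPL10, RPL23A, RPL36A, RPL39, RPL41 and RPS4Y1 are not among the symbols, and FAU and RACK1 lie outside the rule and were counted apart.

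The cytosolic ribosome translates nuclear-encoded messages, and each ribosome holds 1 copy of nearly every ribosomal protein, so their genes are usually read in concert. Their mRNAs start with a 5′ terminal oligopyrimidine (TOP) tract, which ties their translation to the kinase mTORC1 through LARP1. In retina, rods pack rhodopsin and other phototransduction proteins into outer segments that are renewed daily, and Müller glia span the whole neural retina and support its neurons.

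The samples were neural retina of dogs with healthy retinas (genotype labelled Normal or wild-type), all immunosuppressed and all grafted under the retina with fragments of retinal organoids grown from WA09 CRX-tdTomato cells, that is an established line of human embryonic stem cells with a fluorescent reporter of the photoreceptor gene CRX. Within 3 experiments, LG5, RC726 and RC724, a 5 mm punch overlying the transplant and a 5 mm punch away from it (control) were taken from separate areas of the retina 3 days after grafting, dissociated after 10 min in 0.25% trypsin and sequenced as 10X 3′ libraries. Both groups thus share the immunosuppression and the grafting procedure, and each experiment gave 1 library per group. Whether human reads were set apart is not given in sources used here.

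The 6 libraries held 8778 to 23908 barcodes and 34768162 to 60755006 UMIs (unique molecular identifiers, 1 per captured mRNA molecule). Barcodes were gated into classes by marker genes, so their names end in -like, and 6 classes had at least 20 barcodes in every library. Among its top 10 leading genes the rod-like class held 7 of its own markers, the cone-like class 8 and the bipolar-like class 6. The horizontal-like class held 4, the amacrine-like class 2 and the Müller glia-like class 1, and none of the 6 held a marker of another class. The gate used these same markers, so the counts do not test the class names. LG5 stood apart, with 9.32% and 7.71% of all UMIs from ribosomal protein genes over the graft and in control, against 3.37% to 4.68% in the RC726 and RC724 libraries, so changes were measured within experiments. Between 0.194% and 0.677% of barcodes of the smaller library were shared by any 2 libraries.

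Müller glia-like barcodes held a larger share of ribosomal protein UMIs than rod-like barcodes in all 3 control libraries. Ribosomal protein UMIs made up 10.1, 6.63 and 7.44% of Müller glia-like UMIs in the LG5, RC726 and RC724 controls, against 4.99, 1.66 and 1.56% of rod-like UMIs in the same libraries. Each Müller glia-like share lay above the rod-like share of its own library. By gene, 72 of 78 members tested were higher in Müller glia-like than in rod-like sums of the control libraries and 1 was lower (edgeR, adjusted p under 0.05), with a median log2 difference of 2.12. Of all 15500 genes, 60.3% were called, 29.7% higher and 30.6% lower, and their median was -0.09.

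RPLP0, a core protein of the acidic stalk that recruits elongation factors, had 1011, 764 and 1039 CPM (a gene's UMIs scaled to a common total of all UMIs of a class in a library) in Müller glia-like and 399, 140.0 and 155 CPM in rod-like control sums (log2 difference 2.57 ± 0.48 SE, adjusted p = 0.00955). RPL22, an RNA-binding protein of the large subunit, had 715, 509.9 and 524 CPM in Müller glia-like and 276, 93.1 and 84.8 CPM in rod-like sums (log2 difference 2.54 ± 0.43 SE, adjusted p = 0.00787). Both genes were thus higher in the glia-like sums of every control library. Of the paralogs, RPL36AL (log2 difference 2.49, adjusted p = 0.00738), RPS27L (2.14, adjusted p = 0.00764) and RPL10L (3.29, adjusted p = 0.0078) were called higher as well, while 3 others were not. RPL22L1, which can take the place of RPL22, had 110.5, 95.1 and 105 CPM in Müller glia-like and 144, 89.4 and 78.4 CPM in rod-like sums, a log2 difference of 0.43 ± 0.27 SE, adjusted p = 0.223. RPL26L1, a near copy of RPL26, was the member called lower, at 9.8, 5.93 and 7.16 CPM in Müller glia-like and 26, 13.7 and 15.9 CPM in rod-like sums (log2 difference -0.87 ± 0.24 SE, adjusted p = 0.0282). RPL7L1, which takes part in pre-rRNA processing, had 12.6, 7.27 and 9.74 CPM in Müller glia-like and 18.5, 13.5 and 18.2 CPM in rod-like sums and a log2 difference of -0.40 ± 0.21 SE, adjusted p = 0.164. The number of members called was 2 without RC726 and 3 without RC724, that is 2.56% and 3.85% of those tested, where 31.7% and 27.6% of all genes were called. It was 77 without LG5 (98.7%, beside 73.6% of all genes) and 22 without the experiment as a block (28.2%, beside 32.9%), while the median stayed between 1.81 and 2.53.

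**Figure D1:**
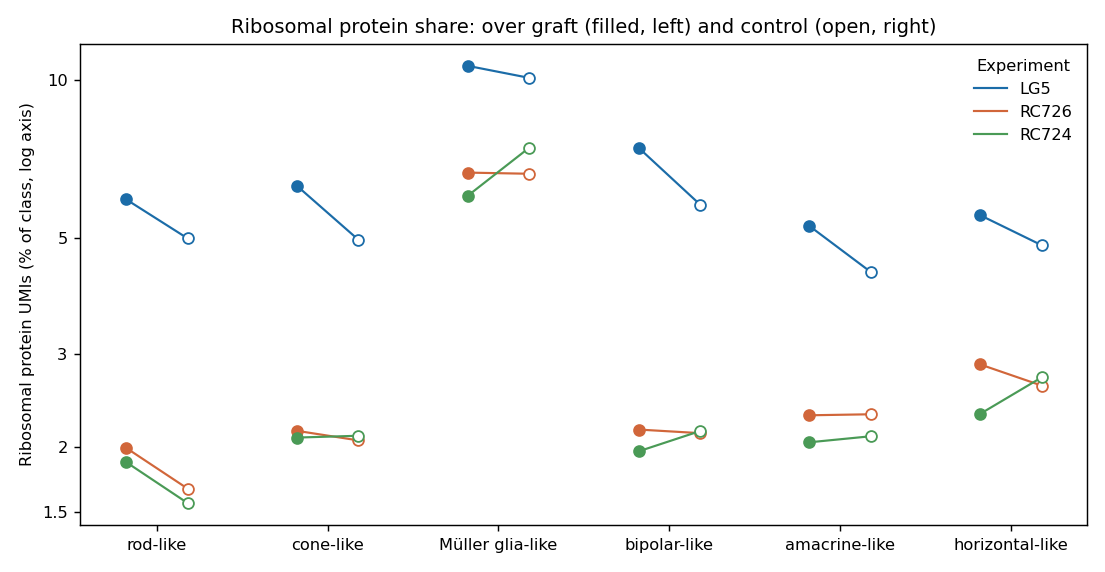
Share of UMIs from the 79 ribosomal protein genes (%, log axis) in 6 marker-gated classes, with filled points for punches over the graft and open points for controls, joined within an experiment. In rod-like barcodes the punch over the graft lies above its control in all 3 experiments, by about the same ratio, and LG5 lies above the other experiments in every class.

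Cone-like control sums lay closer to the rod-like ones, with 4.96, 2.06 and 2.1% of UMIs from ribosomal protein genes. Of 78 members tested, 16 were higher and 1 lower in cone-like than in rod-like control sums, beside 37.9% of all genes called (18.9% higher, 19% lower), with a median log2 difference of 0.33. RPLP1, another stalk protein, had 4493, 1571 and 1590.4 CPM in cone-like and 3246, 837 and 739 CPM in rod-like sums (log2 difference 0.97 ± 0.22 SE, adjusted p = 0.0141). The member that was lower was RPS27L, a paralog of RPS27 that p53 induces in human cells, at 108, 38.7 and 38.2 CPM in cone-like and 176, 58.4 and 54.2 CPM in rod-like sums (log2 difference -0.47 ± 0.14 SE, adjusted p = 0.0378). The called members were thus 21.8% of those tested, a smaller share than among all genes. The count was 0 without RC726 or RC724, where 17.3% and 14.6% of all genes were called, and 57 without LG5 (73.1%, beside 52.7%). It was 7 with free RNA subtracted (8.97%, beside 36.9%), where the median was -0.06, and 0 without the experiment as a block (beside 4.2%).

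Over the graft, with all UMIs of the class summed, the ribosomal protein share of rod-like barcodes was higher than in control by nearly the same ratio in all 3 experiments. It was 5.93, 1.99 and 1.87% over the graft in LG5, RC726 and RC724, against 4.99, 1.66 and 1.56% in control, that is 1.19, 1.2 and 1.2 times the control. Within each experiment the punch over the graft was the higher one, while over all experiments the groups overlap because both LG5 libraries exceed the other 4. The mean log2 ratio was 0.25 ± 0.0068 (SD, n = 3 experiments), and its exact paired sign-flip test gave p = 0.25, the smallest that 3 pairs allow. The 95% Clopper-Pearson intervals of these shares were at most 0.0326 percentage points wide, which covers counting error only.

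The difference in rod-like barcodes was present at each depth examined. Split by UMIs per barcode into 4 ranges per experiment, the share was higher over the graft in 12 of 12 comparisons, by 0.04 to 0.41 on the log2 scale. In LG5 it narrowed with depth, with 5.85% over the graft against 4.42% in control at 500 to 999 UMIs and 5.49% over the graft against 5.31% in control at 4000 UMIs or more. In RC726 it was widest among the deepest barcodes, at 1.99% over the graft against 1.6% in control.

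**Figure D2:**
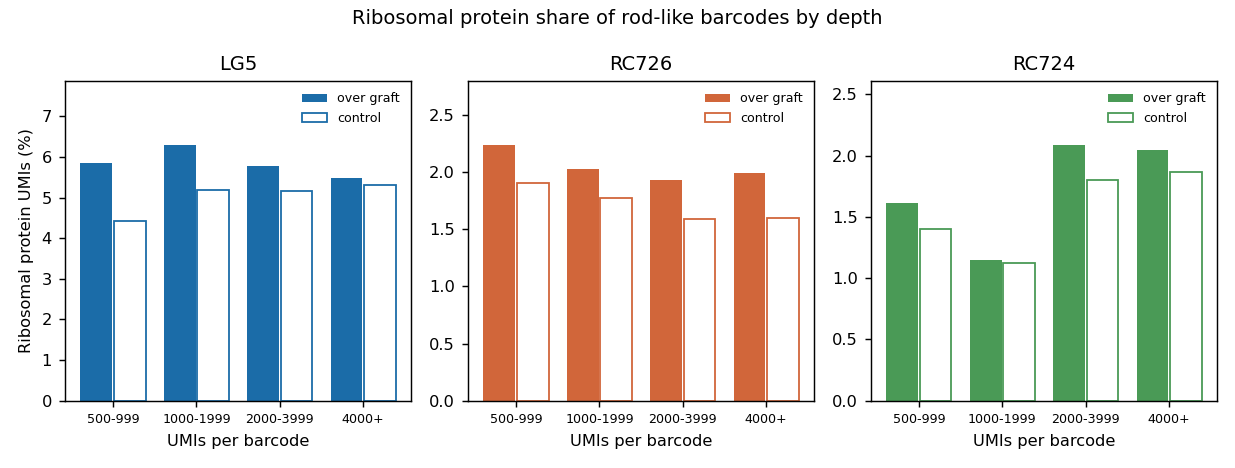
Ribosomal protein share of rod-like barcodes (% of UMIs) by UMIs per barcode, in 1 panel per experiment, with filled bars for the punch over the graft and open bars for the control. The filled bar is the taller one in all 12 pairs, by least in RC724 at 1000 to 1999 UMIs and in LG5 at 4000 UMIs or more.

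Other measures moved beside this share, some of them in all 3 experiments. The estimated free RNA in rod-like sums was 14.8, 4.1 and 3.45% over the graft and 27.3, 6.17 and 3.96% in control, lower over the graft in each experiment. With it subtracted the share was 5.33, 1.89 and 1.78% over the graft and 3.95, 1.55 and 1.43% in control. The mean log2 ratio of the share was then 0.35, and the ratio was less even, widest in LG5. A pair of abundant unannotated identifiers, LOC119877774 and LOC119877775, took 1.62, 15 and 0.854% of rod-like UMIs over the graft and 9.08, 14.8 and 1.27% in control. Outside them the share was 6.02, 2.34 and 1.89% over the graft and 5.49, 1.95 and 1.58% in control. The mean log2 ratio was then 0.22, and the ratio was narrowest in LG5. Mitochondrial UMIs made up 3.27, 4.15 and 4.65% over the graft and 4.94, 3.22 and 3.44% in control, lower in LG5 and higher in the other experiments. The 12 Müller glia markers summed to 2597, 427 and 570.5 CPM in rod-like barcodes over the graft and 3609.9, 406 and 561 CPM in control. The 14 microglia or macrophage markers summed to 100.4, 31.6 and 29.3 CPM over the graft and 44.1, 26.5 and 30.7 CPM in control, 10 to 12 of them had any UMI, and the microglial receptor gene P2RY12 was at 0 in all 6 libraries. The 10 endothelial markers, 7 to 10 of them with any UMI, summed to 60.5, 14.8 and 15.4 CPM over the graft and 95.4, 20.7 and 24.8 CPM in control, lower over the graft in each experiment. The 9 T or NK markers summed to 7.56, 0.406 and 0.292 CPM over the graft and 0.111, 0.271 and 0.399 CPM in control, and CD3G and CD7 were at 0 in each library but LG5 over the graft. The part of these markers in the result was not tested.

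Gene by gene, 24 of 78 tested members rose in rod-like barcodes over the graft and 2 fell, RPL38 and RPL27A (edgeR with the experiment as a block, adjusted p under 0.05). That is 30.8% of the members in the upward direction and 2.56% downward, beside 10.8% and 10.4% of all 15432 genes tested, of which 21.1% were called in all. The median log2 change of the members was 0.23 and 67 of 78 were positive, against a median of 0.00038 and 50.1% positive over all genes. All 26 called members moved one way in all 3 experiments, and the rises ran from 0.33 to 0.80. Shares and CPM are relative to all UMIs of a class, so they do not give the amount of RNA per cell. In such sums a change within cells and a different mix of gated cells cannot be told apart.

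The largest rise was that of RPL36AL, a large-subunit paralog of RPL36A. It had 517, 126 and 156 CPM over the graft in LG5, RC726 and RC724, against 299, 80.6 and 74.5 CPM in control (log2 change 0.80 ± 0.12 SE, adjusted p = 0.000717). Each punch over the graft exceeded its own control, by the widest ratio in RC724. RPL13, of the large subunit, had 1109, 355 and 349.8 CPM over the graft and 716, 252 and 229 CPM in control (log2 change 0.55 ± 0.11 SE, adjusted p = 0.00521). RPL18, also of the large subunit, had 505, 126 and 125 CPM over the graft and 293, 94 and 86.7 CPM in control (log2 change 0.55 ± 0.11 SE, adjusted p = 0.00395). The pattern was the same for both, a higher value over the graft in each experiment and overlap of the groups across experiments.

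RPL22L1 had 278, 104 and 115 CPM over the graft, against 144, 89.4 and 78.4 CPM in control (log2 change 0.55 ± 0.13 SE, adjusted p = 0.0107), with its widest ratio in LG5. RPL9 had 1310.2, 257 and 284 CPM over the graft and 815, 199 and 208 CPM in control (log2 change 0.48 ± 0.11 SE, adjusted p = 0.013). Among small-subunit genes, RPS2, which sits near the mRNA entry channel, had 1628, 447 and 393 CPM over the graft and 1271, 295 and 272 CPM in control (log2 change 0.47 ± 0.12 SE, adjusted p = 0.0205). RPS13 changed by 0.45 ± 0.11 SE and RPS3A by 0.43 ± 0.12 SE on the log2 scale, both called. These 8 genes were the largest rises that also reached 20 CPM in the higher group.

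**Figure D3:**
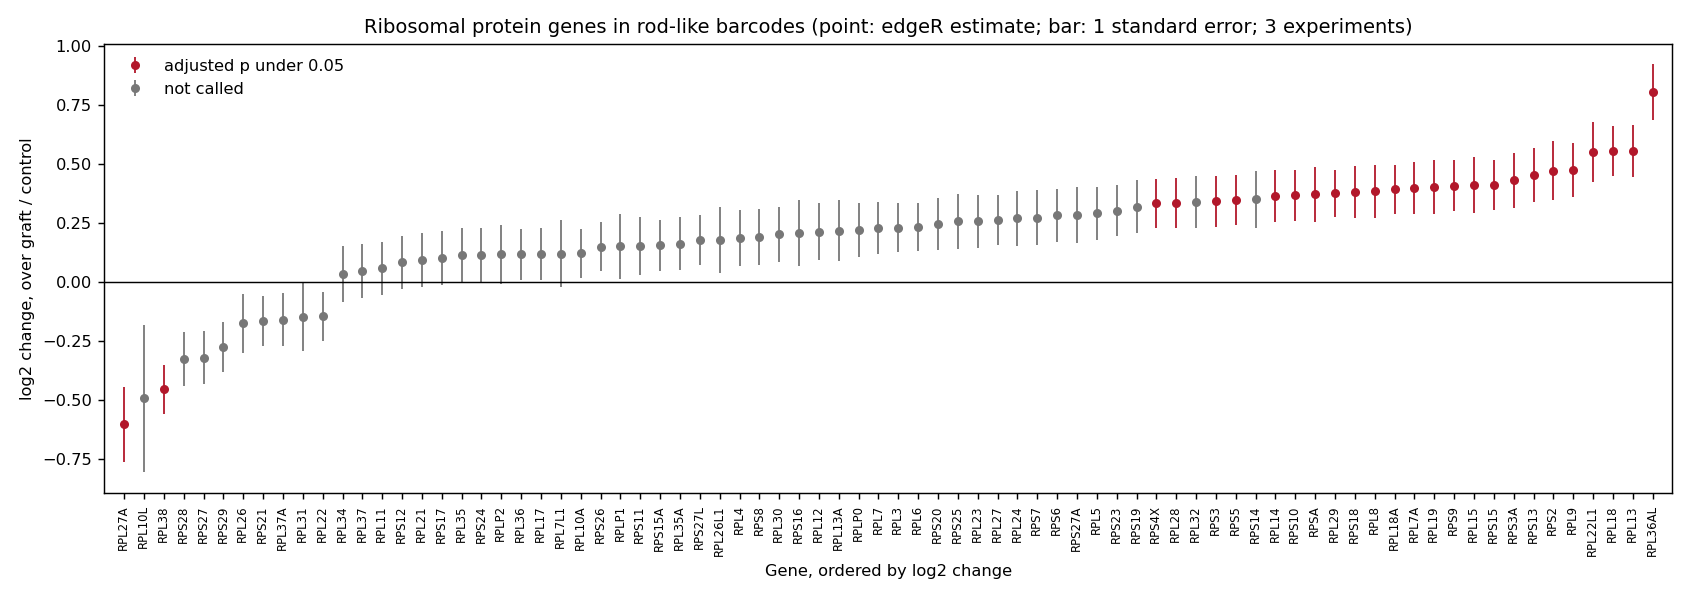
Log2 change over the graft against control of the 78 ribosomal protein genes tested in rod-like barcodes, ordered by size, with 1 standard error either side and called genes in red. Most points lie above 0, RPL36AL stands furthest up at 0.80, and RPL27A and RPL38 are the called genes below 0.

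The members named next, most of them known for roles outside the ribosome, had log2 changes from 0.06 to 0.37. RPSA, the laminin receptor precursor, rose, with 1643, 429.9 and 432 CPM over the graft and 1163, 332 and 347 CPM in control (log2 change 0.37 ± 0.12 SE, adjusted p = 0.0433). RPS3, which also acts in DNA repair, rose by 0.34 ± 0.11 SE on the log2 scale (adjusted p = 0.0443), and the X-linked RPS4X by 0.33 ± 0.10 SE (adjusted p = 0.0438). RPL5 and RPL11 form a complex with the 5S rRNA that can bind MDM2, the ubiquitin ligase of p53. RPL5 had 434, 216 and 233 CPM over the graft and 371, 183 and 166 CPM in control (log2 change 0.29 ± 0.11 SE, adjusted p = 0.0918). RPL11 had 1039.9, 295 and 251 CPM over the graft and 858, 294 and 258 CPM in control (log2 change 0.06 ± 0.11 SE, adjusted p = 0.767), higher in LG5, barely so in RC726 and lower in RC724. Neither passed the test.

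The stalk genes did not pass either, though each was higher over the graft in all 3 experiments. RPLP0 had 416, 178 and 195 CPM over the graft and 399, 140.0 and 155 CPM in control (log2 change 0.22 ± 0.11 SE, adjusted p = 0.203), RPLP1 had a log2 change of 0.15 (adjusted p = 0.484) and RPLP2 one of 0.12 (adjusted p = 0.551). RPS6, the substrate of the S6 kinases, had a log2 change of 0.28 (adjusted p = 0.0988), and RPS19, the gene most often mutated in Diamond-Blackfan anaemia in humans, one of 0.32 (adjusted p = 0.066). RPS27A, which encodes a fusion with ubiquitin, had 0.28 (adjusted p = 0.115). RPL3, next to the peptidyl transferase centre, had 0.23 (adjusted p = 0.148), RPL7 had 0.23 (adjusted p = 0.171) and RPL13A had 0.22 (adjusted p = 0.26). All of these estimates were positive.

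RPL38, a small large-subunit protein that in mouse affects translation of Hox mRNAs, fell: it had 489, 178 and 161 CPM over the graft, against 652, 231 and 227 CPM in control (log2 change -0.46 ± 0.11 SE, adjusted p = 0.0107). RPL27A, of the large subunit, had 80.9, 20.6 and 14.8 CPM over the graft and 112, 42.8 and 16 CPM in control (log2 change -0.60 ± 0.16 SE, adjusted p = 0.02), a fall widest in RC726 and narrow in RC724. RPS27 had 562, 213 and 181 CPM over the graft and 730.4, 245 and 224 CPM in control (log2 change -0.32 ± 0.11 SE, adjusted p = 0.0617), and RPS29 had 599, 153 and 126 CPM over the graft and 717, 170.1 and 159 CPM in control (log2 change -0.28 ± 0.11 SE, adjusted p = 0.0923). Both were lower over the graft in every experiment and neither passed the test.

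The number of rod-like members called rested on the experiments. It was 20 without LG5 (25.6% of those tested, beside 16.6% of all genes), 9 without RC726 (11.5%, beside 17.7%) and 2 without RC724 (2.56%, beside 7.26%), so without RC726 or RC724 the share called was smaller among members than among all genes. Of the 26 called members, 15, 9 and 2 were still called in these fits. Without the experiment as a block no gene was called and no member had an unadjusted p under 0.05, while 65 to 67 of the 78 estimates stayed positive. Across the 78 members, the log2 ratios correlated between experiments with Pearson's r of 0.65 (LG5 with RC726), 0.67 (LG5 with RC724) and 0.59 (RC726 with RC724), a description over genes that share each library's depth and composition.

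A further regularity, seen in the values and not chosen beforehand, ran across classes. Of 75 members tested in all 6 classes, 10 had a negative log2 change in each, or 13.3%, beside 5.58% of the 5373 genes tested in all 6: RPL22, RPL26, RPL27A, RPL31, RPL37A, RPL38, RPS21, RPS27, RPS28 and RPS29. In 18 pairs of punches (6 classes in 3 experiments), RPL38, RPS27 and RPS28 were lower over the graft in 18, RPL37A and RPS29 in 17, and RPL26 in 11. In Müller glia-like sums, RPS28 had 1510.2, 1207 and 993 CPM over the graft and 2194, 1735 and 2086 CPM in control (log2 change -0.76 ± 0.19 SE, adjusted p = 0.132). RPS29 had 1321, 852 and 657 CPM over the graft there and 2148, 1264 and 1408 CPM in control (log2 change -0.84 ± 0.18 SE, adjusted p = 0.0896). In cone-like sums RPL38 had 582, 191 and 192 CPM over the graft and 620.4, 268 and 309.6 CPM in control (log2 change -0.48 ± 0.15 SE, adjusted p = 0.0901). Another 19 members had a positive log2 change in all 6 classes, or 25.3%, beside 12.4% of those genes. The 6 classes come from the same 6 libraries, so these are not separate repeats.

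**Figure D4:**
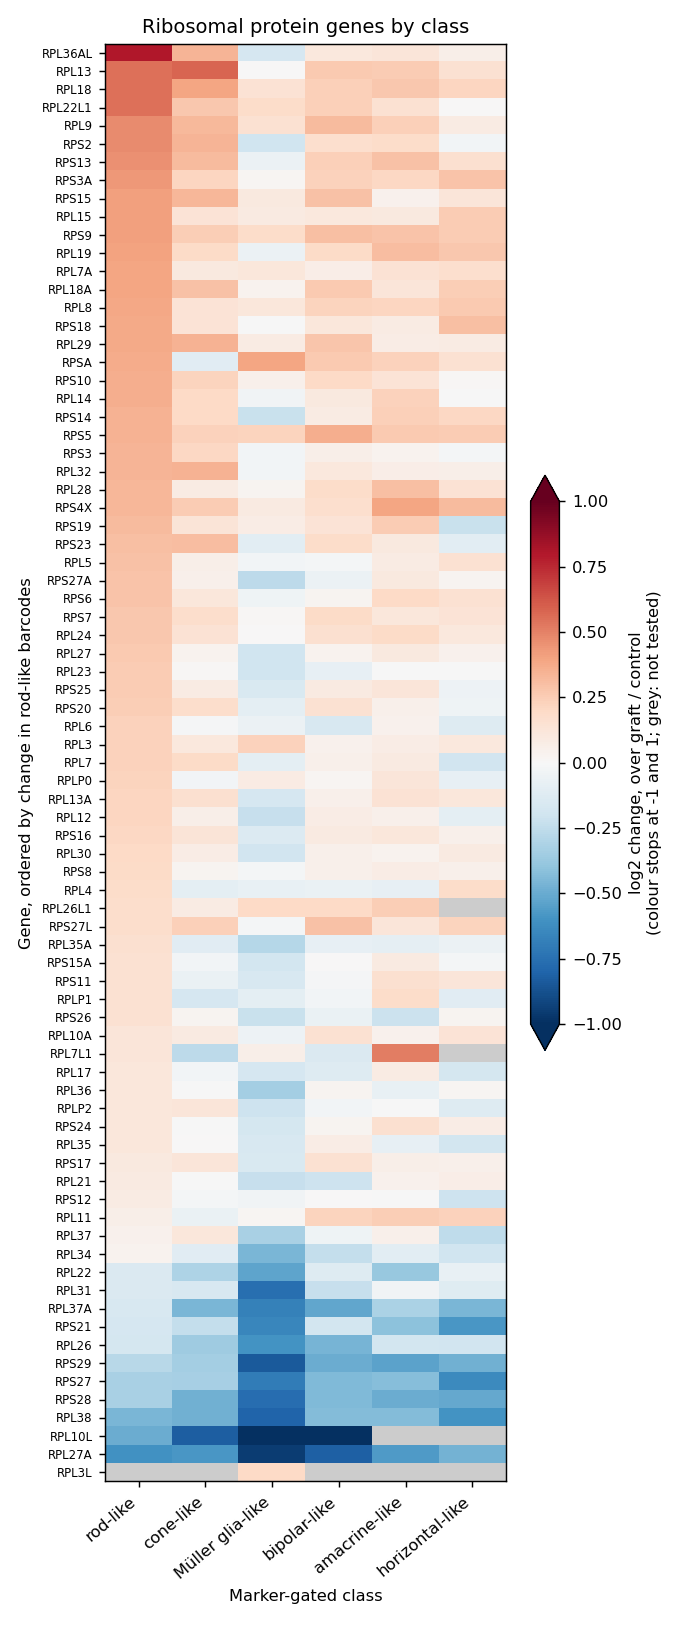
Log2 change over the graft against control of each ribosomal protein gene (rows, ordered by the change in rod-like barcodes) in 6 classes (columns), with colours that stop at -1 and 1 and grey where a gene was not tested. The upper rows are red mainly in the rod-like column, and a block near the bottom, from RPL22 down to RPL27A, is blue in nearly all columns and deepest in the Müller glia-like one.

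Pairs of paralogs were compared by the ratio of their UMIs, which does not depend on the scaling of a library. In rod-like barcodes the ratio of RPL22L1 to RPL22 was 1.06, 1.35 and 1.36 over the graft in LG5, RC726 and RC724, against 0.522, 0.959 and 0.925 in control, a mean log2 change of 0.69 ± 0.29 (SD, n = 3). In Müller glia-like barcodes it was 0.328, 0.232 and 0.334 over the graft and 0.155, 0.187 and 0.201 in control, a mean log2 change of 0.71 ± 0.39. It was higher over the graft in all 3 experiments in each class except horizontal-like, where it was higher in 1. The ratio of RPS27L to RPS27 in rod-like barcodes was 0.357, 0.291 and 0.379 over the graft and 0.241, 0.239 and 0.242 in control, and was higher over the graft in 3 of 3 experiments in each of the 6 classes. Each such set of 3 has an exact paired p of 0.25, the smallest possible. The denominators RPL22 and RPS27 are among the 10 members with a negative log2 change in all 6 classes. A higher ratio therefore need not mean a higher numerator, and the classes share the same libraries.

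The other paralogs were less regular. The ratio of RPL26L1 to RPL26 in rod-like barcodes was 0.13, 0.156 and 0.177 over the graft and 0.0969, 0.0999 and 0.18 in control, about level in RC724. Its mean log2 change was positive in all 6 classes, and it was higher over the graft in 3 of 3 experiments in Müller glia-like and bipolar-like barcodes. Its denominator RPL26 also had a negative log2 change in all 6 classes. The ratio of RPL7L1 to RPL7 was 0.0603, 0.0926 and 0.106 over the graft and 0.0521, 0.0972 and 0.146 in control, higher over the graft in LG5 only, and it was lower over the graft in 3 of 3 experiments in cone-like and higher in 3 of 3 in amacrine-like barcodes. RPL10L, a retrogene that in mouse serves the male germ line, had 5.45, 2.43 and 2.56 CPM over the graft and 7.35, 5.48 and 1.79 CPM in control in rod-like sums (log2 change -0.49 ± 0.31 SE, adjusted p = 0.294). RPL3L, the striated muscle paralog of RPL3, had under 1 CPM in every rod-like sum and was tested in Müller glia-like sums only, with a log2 change of 0.20 (adjusted p = 0.819). Ribosomal protein genes have many near-identical processed copies in mammalian genomes, and how reads matching several copies were counted is not given in sources used here, so levels of single genes are uncertain.

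With all UMIs of a class summed, the ribosomal protein share had no common direction over the 3 experiments in any of the other 5 classes tested. It was 6.29, 2.14 and 2.08% over the graft and 4.96, 2.06 and 2.1% in control in cone-like barcodes, a mean log2 ratio of 0.13 ± 0.19 (SD, n = 3; exact paired p = 0.5). In Müller glia-like barcodes it was 10.7, 6.67 and 6.02% over the graft and 10.1, 6.63 and 7.44% in control, higher in LG5, level in RC726 and lower in RC724, a mean log2 ratio of -0.07 ± 0.20 (exact p = 1). Bipolar-like barcodes had 7.44, 2.16 and 1.96% over the graft and 5.79, 2.12 and 2.14% in control (mean log2 ratio 0.08 ± 0.25, exact p = 0.75). Amacrine-like barcodes had 5.27, 2.3 and 2.04% over the graft and 4.31, 2.31 and 2.09% in control (0.08 ± 0.18, exact p = 1), and horizontal-like barcodes had 5.53, 2.87 and 2.31% over the graft and 4.85, 2.62 and 2.71% in control (0.03 ± 0.23, exact p = 1). With p adjusted over the 6 classes each value was 1. The log2 ratio in Müller glia-like minus that in rod-like barcodes was negative in 3 of 3 experiments, with a mean of -0.33 ± 0.21 (SD, n = 3; exact paired p = 0.25, the smallest possible). It averaged -0.12 ± 0.19 for cone-like and -0.17 ± 0.26 for bipolar-like minus rod-like barcodes (exact p = 0.5 for each), positive in LG5 and negative in the other experiments.

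By gene, 1 of 78 members was called in cone-like sums, beside 3.84% of all genes tested. This was RPL13, with 1170.4, 334 and 370.5 CPM over the graft and 594, 267 and 243 CPM in control (log2 change 0.58 ± 0.15 SE, adjusted p = 0.0473), a call absent at a limit of 10% mitochondrial UMIs, without doublet removal, with free RNA subtracted, without each experiment in turn, and without the experiment as a block. No member was called in Müller glia-like (0 of 79, beside 0.624% of all genes), bipolar-like (0 of 78, 0.157%), amacrine-like (0 of 77, 0.333%) or horizontal-like sums (0 of 75, 0.258%). At an unadjusted p under 0.05 there were 12, 13, 11 and 6 members in these 4 classes, that is 15.2, 16.7, 14.3 and 8% of those tested, beside 14.7, 11.2, 6.49 and 5.57% of all genes. DESeq2 called 11 members (13.9%), all lower, in Müller glia-like sums, beside 2.41% of all genes, and 0 in the other 3 classes. The median log2 change of the members was 0.09 in cone-like, -0.08 in Müller glia-like, 0.06 in bipolar-like, 0.09 in amacrine-like and 0.05 in horizontal-like sums, against 0.02, 0.01, 0.01, 0.01 and -0.00437 over all genes.

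Müller glia-like RPL27A had 144, 61.2 and 40.6 CPM over the graft and 241, 152 and 63.1 CPM in control (log2 change -0.95 ± 0.16 SE, adjusted p = 0.0508), and RPL31 had 81.4, 55.2 and 46.6 CPM over the graft and 166, 78.8 and 68.9 CPM in control (log2 change -0.75 ± 0.13 SE, adjusted p = 0.0515). Both were lower over the graft in all 3 experiments and lay just outside the threshold. Without a filter on low counts 11 members were called there, all lower (13.9%, beside 4.68% of all genes), and without LG5 also 11, all lower (beside 4.78%).

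Whether the change differed between classes was tested as an interaction for 3 pairs of classes. RPL36AL was 728, 373 and 407 CPM over the graft in Müller glia-like sums and 800.0, 394 and 453 CPM in their controls, so it was lower over the graft there in each experiment, whereas it was higher in each in rod-like sums. The change in Müller glia-like minus that in rod-like sums was -0.93 ± 0.17 SE, adjusted p = 0.00261. For RPL31 the same difference was -0.56 ± 0.13 SE, adjusted p = 0.0172. These 2 of 79 members were called, beside 8.8% of all 18222 genes, and 74 of 79 differences were negative with a median of -0.30, against 0.05 over all genes.

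In bipolar-like sums RPL36AL had 487, 145 and 140.5 CPM over the graft and 387, 133 and 140.5 CPM in control, and its change minus that in rod-like sums was -0.68 ± 0.14 SE, adjusted p = 0.0143. It was the 1 member of 78 called for this pair, beside 5.52% of all genes. In cone-like sums the 1 member of 78 called was RPSA, with 1340.2, 368 and 317 CPM over the graft and 1094, 409.8 and 392 CPM in control there, higher over the graft in LG5 and lower in the others (change minus that in rod-like sums -0.42 ± 0.13 SE, adjusted p = 0.0413; 6.15% of all genes called). With terms for the libraries but none for class within experiment, no gene at all was called for any of the 3 pairs. Without LG5, 10 members were called for Müller glia-like against rod-like (12.7% of those tested, beside 8.78% of all genes). For cone-like it was 3 (3.85%, beside 7.37%) and for bipolar-like 0 (beside 2.26%). Without RC726 the Müller glia-like count was 1 (1.27%, beside 5.14%) and the cone-like count 0 (beside 3.49%). Without RC724 these counts were 1 (1.27%, beside 6.84%) and 0 (beside 2.05%).

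**Figure D5:**
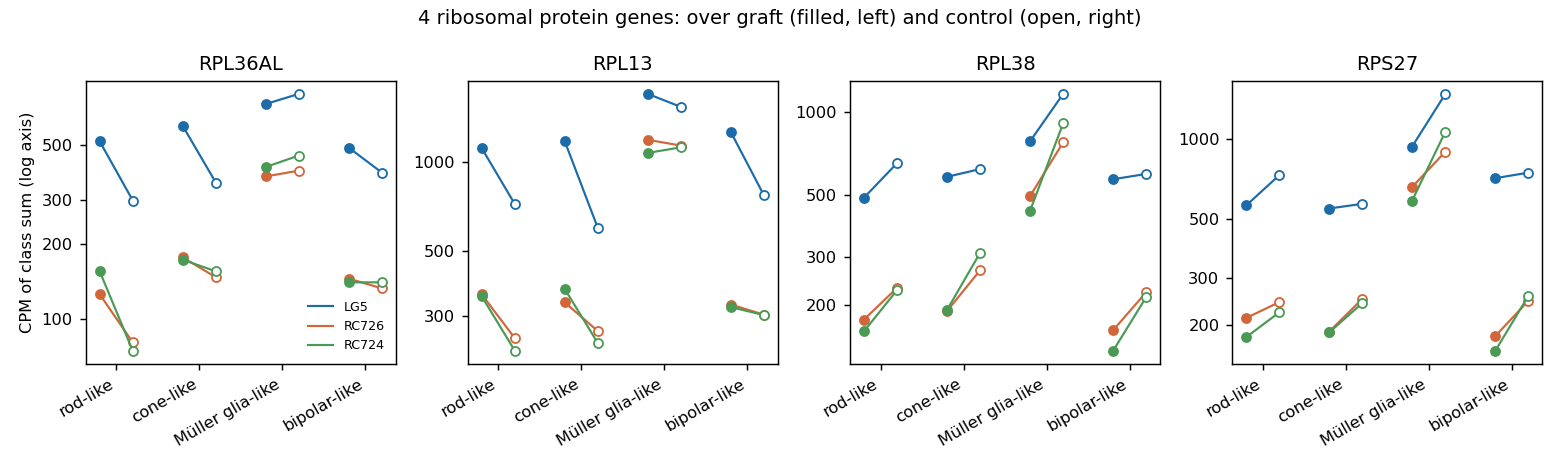
CPM (log axis) of RPL36AL, RPL13, RPL38 and RPS27 in 4 classes, with filled points for punches over the graft and open points for controls, joined within an experiment. RPL36AL is higher over the graft in all 3 experiments in rod-like and cone-like sums and lower in Müller glia-like ones, while RPL38 and RPS27 are lower over the graft in every class shown.

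The wider translation machinery in rod-like barcodes held called genes in both directions, to be read beside the 10.8% of all genes that rose and the 10.4% that fell. Of 19 other TOP mRNAs, 4 rose (21.1%) and 0 fell, with a median log2 change of 0.16. They were EEF2, the translocation factor, with 193, 56.8 and 73 CPM over the graft and 134, 47.4 and 44.6 CPM in control (log2 change 0.47 ± 0.11 SE, adjusted p = 0.014), HNRNPA1 (0.39, adjusted p = 0.0199), EIF3F (0.34, adjusted p = 0.0342) and EEF1B2 (0.37, adjusted p = 0.0421). FAU and RACK1, ribosomal genes outside the naming rule, had log2 changes of 0.29 and 0.14, neither called. Of 21 translation factors, 6 rose (28.6%) and 0 fell (median 0.23), led by EIF1, which guards start codon choice, with 1705, 534 and 642 CPM over the graft and 1042, 416 and 430.3 CPM in control (log2 change 0.52 ± 0.12 SE, adjusted p = 0.0117), and by EIF3G, EIF3I and GSPT1.

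Of 34 ribosome biogenesis genes, 3 rose and 2 fell (median 0.19), so that 14.7% were called, beside 21.1% of all genes. The nucleolar chaperone NPM1 had 317, 129 and 169 CPM over the graft and 210.1, 98.2 and 121 CPM in control (log2 change 0.47 ± 0.10 SE, adjusted p = 0.00695), and NHP2, of the small nucleolar particles that modify rRNA, and the nucleolar phosphoprotein NOLC1 rose too. POLR1A, the largest subunit of the RNA polymerase that makes rRNA, fell, with 22.2, 28.7 and 31.7 CPM over the graft and 36.7, 43.5 and 50.1 CPM in control (log2 change -0.68 ± 0.11 SE, adjusted p = 0.0018), as did RRP12. Of 17 mTORC1 and TOP control genes, 1 rose, the mTORC1 activator RHEB (log2 change 0.43 ± 0.12 SE, adjusted p = 0.0227), and 1 fell, MTOR itself (log2 change -0.36 ± 0.11 SE, adjusted p = 0.0381), with a median of -0.03. That is 11.8% called, again below the share among all genes. LARP1 had a log2 change of 0.19 (adjusted p = 0.207).

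Genes of the mitochondrial ribosome, a separate particle, had 27 of 76 members rising (35.5%, beside 10.8% of all genes) and 3 falling (3.95%, beside 10.4%) in rod-like barcodes, with a median of 0.25, close to that of the cytosolic members. MRPL15 had 129, 33.3 and 43.7 CPM over the graft and 56.2, 19.7 and 19.6 CPM in control (log2 change 1.01 ± 0.12 SE, adjusted p = 0.000222), and MRPS10 had 38.2, 49.6 and 47.1 CPM over the graft and 102, 90.6 and 81.1 CPM in control (log2 change -1.04 ± 0.14 SE, adjusted p = 0.000465). MRPL20 rose by 0.64 and MRPS24 by 0.66 on the log2 scale. Of 9 interferon-induced or stress-linked repressors of translation tested, 5 rose (55.6%, beside 10.8% of all genes) and 0 fell. EIF2AK2, the kinase PKR that phosphorylates an initiation factor on sensing double-stranded RNA, had 14.1, 11.4 and 13.1 CPM over the graft and 1.67, 1.35 and 0.698 CPM in control (log2 change 3.33 ± 0.28 SE, adjusted p = 2.34e-05). OAS1, an interferon-induced oligoadenylate synthetase, had 56.7, 13.1 and 19.3 CPM over the graft and 1.89, 0.812 and 0.399 CPM in control (log2 change 4.69 ± 0.25 SE, adjusted p = 1.44e-06). ZC3HAV1, a CpG-RNA sensor, rose by 2.73 on the log2 scale.

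Across these lists, 1 gene was called in the other 5 classes, MRPL15 in cone-like sums (log2 change 0.57 ± 0.14 SE, adjusted p = 0.0298). The median log2 change of the TOP list was -0.05 in cone-like and -0.04 in Müller glia-like sums, and that of the mitochondrial ribosomal list was 0.16 in both.

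Of the classes with too few barcodes to test, the microglia- or macrophage-like and endothelial-like ones had a share several times that of the rod-like class. Microglia- or macrophage-like barcodes had 21.6, 15.7 and 14.2% over the graft and 24.4, 14 and 28.8% in control in LG5, RC726 and RC724, the RC724 control resting on 7 barcodes, and endothelial-like barcodes had 21.7, 12.7 and 13.5% over the graft and 18.3, 9.63 and 12.3% in control, the RC726 control resting on 7. The endothelial-like share was higher over the graft in 3 of 3 experiments and the microglia- or macrophage-like share in 1 of 3. Ganglion-like barcodes, as few as 1 in a library, lay lower, at 5.59, 5.31 and 3.72% over the graft and 5.13, 1.98 and 3.15% in control. No test was made on these.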

How the data were processed

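Single-cell UMI counts of 6 dog neuroretina libraries were deposited by the authors as filtered matrices. The deposited values are raw counts made with Cell Ranger 6.0.2 (both LG5 libraries), 7.1.0 (RC726 over graft and both RC724 libraries) and 7.0.0 (RC726 control), per the file headers. So the RC726 punches differ in version, and both LG5 libraries differ in version from those of the other experiments. The part of the version in the higher LG5 share was not tested. No build or annotation is named in sources used here, nor how intronic and multi-mapped reads were treated, and no sequence was read.

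Kept barcodes had 300 or more genes and no more than 20% mitochondrial UMIs (13 genes). The 6% with the highest Scrublet score were then removed from each library, since its automatic limit marked almost none. Each barcode received, per marker list, the mean of its markers' log values scaled to the 0.995 quantile of their library. A class needed 3 detected markers, a score of at least 0.2 and a margin of 0.1. Of assigned barcodes, 10.9% to 27.1% per library lay near that limit. Free RNA in a class was estimated from the share of rod markers in it (Müller glia markers for the rod-like class) relative to the whole library. Any rod marker UMI in cone-like sums thus counts as free RNA, and the estimate there was 14.3% to 49.2%.

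UMIs were summed per class and library, and 6 classes with at least 20 barcodes in every library were tested over all genes. Under R 4.3.3, edgeR 4.0.16 fitted quasi-likelihood models (TMM scaling, genes filtered by filterByExpr) with experiment as block, and p-values were adjusted by Benjamini-Hochberg (threshold 0.05). DESeq2 1.42.0 was an alternative. SE is the log2 change over the square root of F. Differences between classes were interaction terms in fits of 12 sums with a term per library and per class within experiment. CPM are relative to all UMIs of a class in a library, and log2 ratios per experiment use CPM + 1. Shares were compared by exact two-sided sign-flip tests over 3 pairs. The fits were tested on simulated data.

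The series' design text describes both punches of an experiment as areas of the grafted retina. Deviations of same-experiment sums from their group means correlated at 0.592 to 0.954, so the block is the main design. The labels do not say whether the 3 experiments used separate animals, so p-values measure only the spread between these libraries.

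The members and all lists were chosen with earlier results of these data known. Named genes are paralogs and members with known extra roles, in every case, and per class the 8 largest called rises and falls with 1 direction in 3 experiments and at least 20 CPM in the higher group, plus up to 4 called genes per pathway list. For ribosome biogenesis all called genes are named, which exceeds that limit. Some genes that the rule names are not reported here. Alternatives were a stricter gate, 10% mitochondrial UMIs, no doublet removal, free RNA subtracted, other scalings, no filter, no block and each experiment left out. Shares outside 2 unannotated identifiers and means over barcodes were added after seeing the data. Python 3.11.15, scanpy 1.11.5, numpy 2.4.6, pandas 2.3.3 and scipy 1.17.1 were used.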

Additional observations from a re-analysis of the deposited data

Results flagged for a closer look

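4 differences between classes were picked out because the interaction term of the class fits passed an adjusted p of 0.05 (edgeR). They were 2 of 79 members for Müller glia-like, 1 of 78 for bipolar-like and 1 of 78 for cone-like, each against rod-like. That is 2.53%, 1.28% and 1.28% of members, a smaller share than the 8.8%, 5.52% and 6.15% of all genes. With library terms only, no gene was called for any of these pairs. For RPL36AL, the change over the graft in Müller glia-like sums minus that in rod-like sums was -0.93 ± 0.17 SE on the log2 scale (adjusted p = 0.00261), with a lower value over the graft in 3 of 3 Müller glia-like pairs and a higher one in 3 of 3 rod-like pairs. For the same gene, bipolar-like minus rod-like was -0.68 ± 0.14 SE (adjusted p = 0.0143). For RPL31, Müller glia-like minus rod-like was -0.56 ± 0.13 SE (adjusted p = 0.0172). For RPSA, cone-like minus rod-like was -0.42 ± 0.13 SE (adjusted p = 0.0413).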

How the results depend on the processing

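The rod-like share stayed higher over the graft under every alternative run. Where a class had no common direction, the sign of its mean log2 ratio turned: to -0.0022 in cone-like, -0.079 in bipolar-like and -0.18 in horizontal-like sums with free RNA subtracted, to -0.12 in cone-like sums as a mean over barcodes, and to 0.0061 in Müller glia-like sums at 10% mitochondrial UMIs. Leaving out 1 experiment gave -0.15 to 0.042 in Müller glia-like, -0.053 to 0.19 in bipolar-like, -0.022 to 0.14 in amacrine-like and -0.049 to 0.16 in horizontal-like sums. Some classes without a common direction in the summed share had one under an alternative. As a mean over barcodes, the share was lower over the graft in every experiment in Müller glia-like barcodes and higher in every one in horizontal-like barcodes. With the stricter gate it was higher in every experiment in cone-like and amacrine-like sums. The same held for cone-like sums at 10% mitochondrial UMIs.

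Counts of called members moved more. Leaving out 1 experiment gave 2 to 20 in rod-like sums (2.56% to 25.6% of members, beside 7.26% to 17.7% of all genes). It gave 0 to 2 in cone-like sums (0 to 2.56%, beside 3% to 5.33%). In Müller glia-like sums it gave 0 to 11 (0 to 13.9%, beside 0.0228% to 4.78%). In bipolar-like sums it gave 0 to 2 (0 to 2.56%, beside 0.00735% to 4.74%). The Müller glia-like difference from rod-like changes gave 1 to 10 (1.27% to 12.7%, beside 5.14% to 8.78%). The cone-like difference gave 0 to 3 (0 to 3.85%, beside 2.05% to 7.37%) and the bipolar-like one 0 to 1 (0 to 1.28%, beside 2.26% to 6.76%). Müller glia-like over rod-like control sums gave 2 to 77 (2.56% to 98.7%, beside 27.6% to 73.6%). Cone-like ones gave 0 to 57 (0 to 73.1%, beside 14.6% to 52.7%). With no replicate block (unpaired), no gene at all was called in rod-like or cone-like sums. The control comparisons then gave 22 for Müller glia-like (28.2%, beside 32.9% of all genes) and 0 for cone-like (beside 4.2%). The unpaired exact p of the rod-like share was 0.5. In cone-like sums the count was 0 at 10% mitochondrial UMIs, without doublet removal or with free RNA subtracted (beside 3.52%, 3.38% and 0.498% of all genes). It was 4 without a filter (5.06%, beside 3.69%). In Müller glia-like sums it was 1 with the stricter gate or without the 2 unannotated identifiers (1.27%, beside 0.79% and 0.737% of all genes). It was 2 at 10% mitochondrial UMIs or with DESeq2 size factors (2.53%, beside 1.03% and 0.73%). It was 11 without a filter or with DESeq2 (13.9%, beside 4.68% and 2.41%). In bipolar-like sums it was 1 with the stricter gate (1.28%, beside 0.605% of all genes) and 8 without a filter (10.1%, beside 1.71%). With library terms only, the 3 differences between classes gave 0 each, among members and among all genes. Cone-like over rod-like control sums gave 7 with free RNA subtracted (8.97%, beside 36.9% of all genes). The cause of these moves was not tested.

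Of the 26 members called in rod-like sums, none changed sign under any of 13 alternatives. All 26 stayed called with the stricter gate, 10% mitochondrial UMIs, both other scalings, no filter and DESeq2, 25 without doublet removal, 22 with free RNA subtracted, 15, 9 and 2 without LG5, RC726 and RC724, and 0 with no replicate block. With 3 pairs no share could pass a threshold of 0.05, so the share tests say nothing about stability. The horizontal-like sums rest on as few as 29 barcodes a library.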
